A study of Homo sapiens with 8 samples.

Results

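The proteins that write, erase and read N6-methyladenosine (m6A) are themselves made from mRNAs that can carry the mark. The genes described here were METTL3, METTL14 and WTAP of the methyltransferase complex, the demethylases FTO and ALKBH5, and the m6A-binding YTH proteins YTHDF1, YTHDF2, YTHDF3 and YTHDC1. HepG2, a human hepatocellular carcinoma cell line, was transfected with a control siRNA (siControl) or with a METTL3 siRNA (siMettl3) and harvested 48 h later, with 2 replicates in each group. Polyadenylated RNA was fragmented, precipitated with an anti-m6A antibody and sequenced beside its input, and m6A peaks were called in each of the 4 immunoprecipitated samples separately. Both groups were grown in the same medium, the methods name a single METTL3 siRNA target sequence, and nothing in the sources says whether the replicates were separate cultures, so a p-value here measures only the spread between these samples. A peak belonged to a gene when at least 1 of its bases lay in that gene's window in the build hg19, and the 9 windows held 43 of the 30765 peaks in the 4 lists. Peaks that overlapped between samples were joined into regions, of which 15 of 12221 belonged to these genes. They were numbered from the 5′ end of each gene.

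METTL3 is the catalytic subunit of the nuclear methyltransferase complex, METTL14 is its partner that helps to bind RNA, and WTAP holds the pair in nuclear speckles. FTO and ALKBH5 remove methyl groups from RNA. Among the readers, YTHDC1 is nuclear and takes part in splicing and export, while the YTHDF proteins are mainly cytosolic and are known for their influence on mRNA decay and translation. m6A in mRNA is known to be frequent in long exons and near stop codons, and it is most often found in the sequence GGACT and its close relatives.

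The lists held 6888 and 8162 peaks in siControl and 7138 and 8577 in siMettl3. The depth of the libraries is not known from the peak lists used here, which give tags, the sequenced fragments, within peaks. Each peak has a score (a multiple of −log10 of its p-value, from 50 upward), a linear fold enrichment of the immunoprecipitated RNA over the caller's local background, and a false discovery rate (FDR). The median FDR of a list lay between 54.4% and 72.0%. Among the 43 peaks of the 9 genes, 2 had an FDR no higher than 5%, and both were in siControl replicate 2 (YTHDF2 region 1 and YTHDF3 region 2). The share of all peaks in the lists at this limit was not counted, so this number cannot be read as particular to these genes. The peaks of these genes with an FDR no higher than 50% numbered 9 and 8 in siControl and 4 and 6 in siMettl3. These were 75.0% and 80.0% of their siControl peaks and 40.0% and 54.5% of their siMettl3 peaks, where the whole lists had 42.0% and 43.9% in siControl and 32.9% and 45.5% in siMettl3. A gene without a listed peak is one in which no peak reached the score of 50, and it may still be methylated. The peaks of chromosome 1 reached position 249212912, past the last RefSeq gene of GRCh38.p14 at 248937099, and the submitters' notes name hg19. No exon annotation of hg19 was used, so that exons, introns and untranslated regions are not assigned, and the liver markers of HepG2 were not checked for the same reason.

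Peaks were present in all 4 samples in 5 of the 9 genes, namely METTL14, WTAP, YTHDF2, YTHDF3 and YTHDC1. METTL3 had peaks in both siMettl3 samples and in neither siControl sample. FTO and YTHDF1 had 1 peak each in a single siControl sample, and ALKBH5 had none in any sample. The windows held 12 and 10 siControl peaks and 10 and 11 siMettl3 peaks. The groups overlapped, with means of 11.0 ± 1.41 and 10.5 ± 0.707 (SD, n = 2 in each group). An exact permutation test, two-sided, gave p = 1.0, and with groups of this size it cannot go below 0.33. Leaving out siControl replicate 1, which alone held the peak of YTHDF1 and a second peak of YTHDF2, turned the difference from −0.5 to 0.5. Of the 15 regions, 8 had a peak in all 4 samples, against 31.7% of all regions, and 4 had one in a single sample, against 31.1%. Of the regions that separated the groups, 0 were present in both siControl samples and no siMettl3 sample (5.2% of all regions) and 1 was present in both siMettl3 samples and no siControl sample (5.25% of all regions). Peaks with an FDR no higher than 50% formed 9 regions in these genes. Of these, 4 were in all 4 samples (25.5% of all such regions), 2 were in both siControl samples alone (6.09%), namely WTAP region 2 and YTHDF3 region 3, and 0 were in both siMettl3 samples alone (4.49%).

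**Figure D1:**
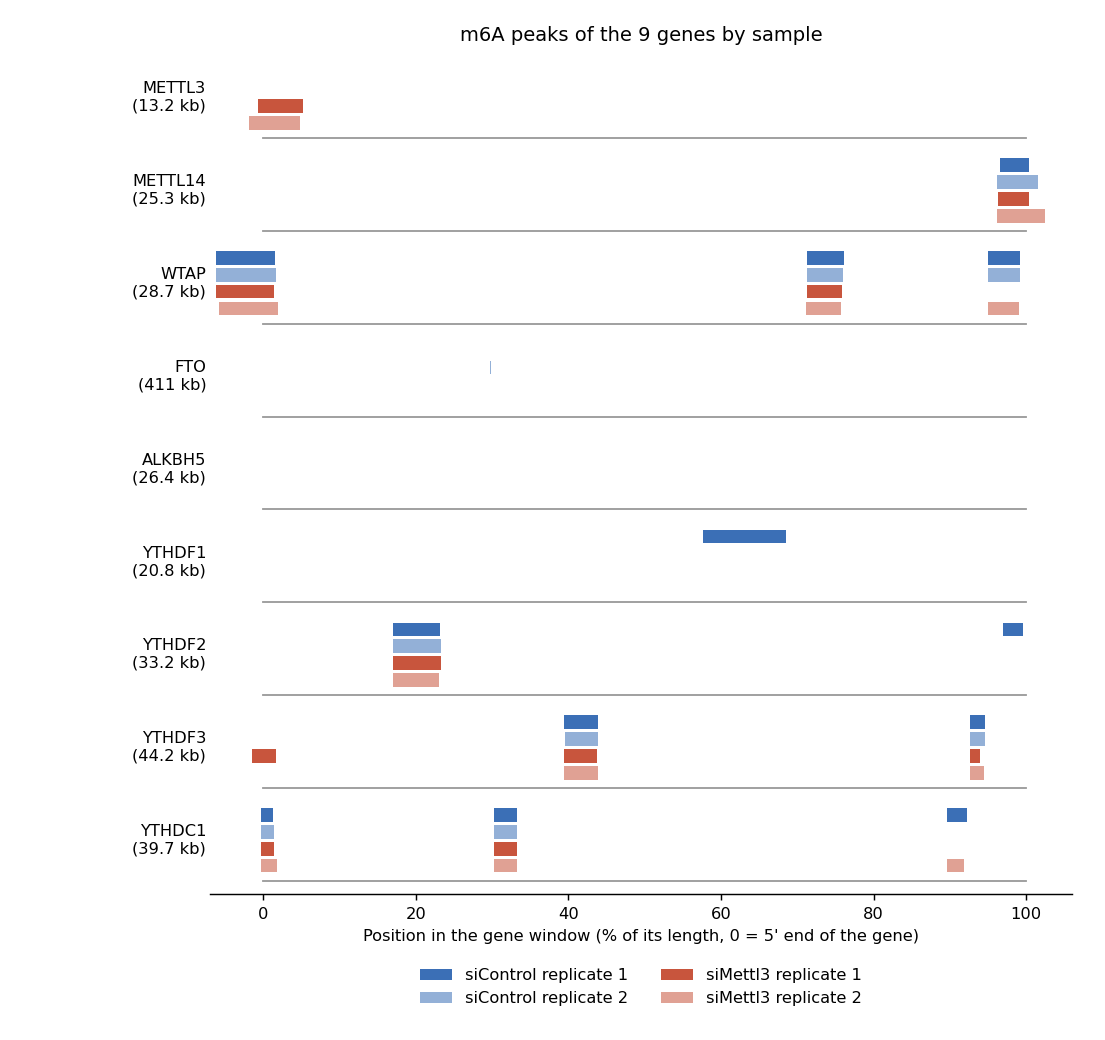
Peaks in the 9 gene windows, with the position from the 5′ end of the gene in percent of the window on the x axis and 1 row of bars for each sample in each gene. METTL14, WTAP, YTHDF2, YTHDF3 and YTHDC1 have peaks in all 4 samples, METTL3 only in the siMettl3 samples, and ALKBH5 in none.

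METTL3 was the target of the siRNA. Its region on chromosome 14 (chr14:21978837-21979774, hg19) lay at the 5′ end of the gene, which is on the minus strand. The summit was 185 bases into the gene in siMettl3 replicate 1 and 104 bases in siMettl3 replicate 2. Fold enrichment was 6.04 and 7.68 in these samples, higher than 86.7% and 93.3% of the peaks in their lists. The peaks were small, with 67 and 68 tags, and their scores of 84.92 and 105.06 exceeded only 35.3% and 48.1% of the scores in their lists. The FDR was 86.83% and 55.74%, so that the region is lost under an FDR limit of 50%. No siControl sample had a peak there or elsewhere in the METTL3 window. The amount of METTL3 mRNA, which would check the knockdown in these samples, cannot be read from lists of peaks. By qRT-PCR and immunoblotting, the paper reports lower levels of this transcript and of its protein with the siRNA. It does not say whether the sequenced cultures were the ones measured. A loss of m6A was, by the paper's own account, not checked. Both METTL3 peaks thus come from the group in which less of the transcript was reported. TOX4, a protein-coding gene, overlaps METTL3 at the other end in the RefSeq table of GRCh38.p14, and the adjacent protein-coding gene on the side of the peak is SALL2.

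The METTL3 peaks ran 85 and 257 bases past the 5′ end of the window. The 250 bases before the METTL3 start in RefSeq (GRCh38.p14, chr14:21511341-21511590, minus strand) are therefore shown, beside those of YTHDC1 (GRCh38.p14, chr4:68350091-68350340, minus strand), whose peaks ran 107 to 120 bases past its start in all 4 samples. Capitals mark the sequence GGACT, read on the strand of the gene.
METTL3: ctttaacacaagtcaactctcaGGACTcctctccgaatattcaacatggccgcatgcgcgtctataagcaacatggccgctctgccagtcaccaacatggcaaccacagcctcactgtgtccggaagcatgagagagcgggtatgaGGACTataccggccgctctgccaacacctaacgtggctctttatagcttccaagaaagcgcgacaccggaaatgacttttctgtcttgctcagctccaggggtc
YTHDC1: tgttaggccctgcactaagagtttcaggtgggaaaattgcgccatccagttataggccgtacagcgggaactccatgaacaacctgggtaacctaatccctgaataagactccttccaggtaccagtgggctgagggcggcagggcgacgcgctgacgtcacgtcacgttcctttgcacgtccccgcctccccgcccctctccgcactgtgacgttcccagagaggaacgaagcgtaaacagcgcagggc
GGACT stands 228 and 104 bases before the METTL3 start and is not among the letters shown for YTHDC1. On the strand of the gene it is present in the same 250 bases of 21.1% of the 35116 promoters in the table, and on either strand in 37.7%. The table holds 10 promoters for 8 of the 9 genes, and 4 of the 10 have GGACT on the strand of the gene, those of METTL3, METTL14 and FTO and 1 of the 2 of YTHDF2. In the 50 bases after the start it is present in 4.9% of the promoters and in none of the 10. YTHDF3 has no entry. The WTAP sequences are not shown, although the peaks of WTAP region 1 ran 1658 to 1802 bases past the start of its window. Neither of the 2 WTAP promoters has GGACT on the strand of the gene. The windows are in hg19 and the METTL3 gene of the table is 33 bases shorter than its window, so these positions are not placed on the peaks. They also lie before the annotated start, so they do not show that the METTL3 mRNA carries GGACT under its peaks.

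METTL14 had 1 region, at the end of its window (chr4:119630855-119632441, hg19). The summits were within 14 bases of each other in the 4 samples, at 98.1% of the window, and the peaks extended 93 to 616 bases beyond it. METTL14 is 30039 bases long in RefSeq against 25252 in the window, so the region need not mark the end of the transcript. Fold enrichment was 5.58 and 6.72 in siControl and 5.04 and 6.60 in siMettl3, values that overlap. The difference of log2 fold enrichment, siMettl3 minus siControl, was −0.09 ± 0.20 (SE), with an adjusted p of 0.912 in limma. The tags per kb of peak were 126 and 136 in siControl and 94.7 and 93.5 in siMettl3, so that both siMettl3 samples lay below both siControl samples. The direction of the enrichment difference was not stable, since it was 0.05 without siControl replicate 2 and 0.11 without siMettl3 replicate 1.

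WTAP had the most peaks of the 9 genes, 11 in 3 regions. The whole gene lies inside SOD2, which encodes the mitochondrial superoxide dismutase, in the RefSeq table of GRCh38.p14. The sources do not say that the libraries kept the strand, so reads of both genes cannot be told apart where both are transcribed.

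WTAP region 1 (chr6:160146802-160149150, hg19) overlapped the start of the window, but its summits lay outside, at −939 and −946 bases from the window's start in siControl and at −941 and −923 in siMettl3. The length of the window minus that of the WTAP gene in RefSeq is −879 bases, and the region is counted here by the overlap alone. Fold enrichment was 4.03 and 3.84 in siControl and 4.0 and 4.43 in siMettl3. Scores were 220.38 and 244.66 in siControl and 325.59 and 324.44 in siMettl3, so that both siMettl3 samples were above both siControl samples in score, while the enrichments overlapped (log2 difference 0.10 ± 0.16 SE, adjusted p = 0.863 in limma).

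WTAP region 2 (chr6:160169074-160170485, hg19), at 72.4% of the window, went the other way. Fold enrichment was 4.89 and 4.38 in siControl and 3.84 and 3.62 in siMettl3. The groups did not overlap, and the siMettl3 values had a geometric mean of 0.806 times that of siControl (log2 difference −0.31 ± 0.17 SE). This difference did not pass the test (adjusted p = 0.578, limma). The score was 250.4 and 212.76 in siControl and 61.91 and 71.11 in siMettl3, close to the threshold of 50 in the latter. The tag density differed less, with 377 and 401 per kb in siControl and 368 and 293 in siMettl3, again with both siMettl3 samples lower.

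WTAP region 3 (chr6:160175910-160177139, hg19), at 96.7% of the window, was called in 3 samples. Fold enrichment was 4.35 and 4.09 in siControl and 3.79 in siMettl3 replicate 2, with no peak in siMettl3 replicate 1. Its score was 230.17 and 216.31 in siControl and 127.05 in siMettl3 replicate 2. Regions 2 and 3 of WTAP thus had lower scores or no peak in siMettl3, and region 1 had higher scores. Since the summits of region 1 lay outside the window, and SOD2 spans the gene, these need not be differences within 1 transcript.

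The demethylases had almost no peaks. FTO, whose window of 411 kb is by far the longest of the 9, had a single peak in siControl replicate 2 (chr16:53859639-53860600, hg19), at 29.8% of the window. Its fold enrichment was 2.51, above only 1.13% of that list, and its score of 54.76 was close to the threshold. ALKBH5 had 0 peaks in its window, and extending all 9 windows by 5000 bases on each side, an alternative chosen after seeing the data, added 0 peaks in any sample.

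The YTHDF genes code for closely related cytosolic readers, but their peaks were not alike. YTHDF1 had 1 peak, in siControl replicate 1 (chr20:61833325-61835578, hg19), with 1647 tags, the most in any peak of the 9 genes, and a fold enrichment of 2.19, among the lowest 0.29% of that list. Its FDR was 100%. Many tags and a low enrichment went together there.

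YTHDF2, the reader known for recruiting a deadenylase to methylated mRNA, had 1 strong region in all samples (chr1:29068767-29070865, hg19), at 21.4% of the window. The score was 370.02 and 647.89 in siControl and 427.32 and 363.97 in siMettl3, above at least 90.3% of the peaks of each list. Fold enrichment was 3.08 and 3.39 in siControl and 3.71 and 3.50 in siMettl3, so that both siMettl3 samples were above both siControl samples (log2 difference 0.16 ± 0.16 SE, adjusted p = 0.777, limma). The tags went the other way. They were 600 and 621 per kb in siControl and 481 and 390 per kb in siMettl3, again without overlap. A second region near the end of the gene, at 97.6% of the window, had a peak in siControl replicate 1 only, with a fold enrichment of 4.52 and a score of 83.68.

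YTHDF3 had 3 regions. The strand of this gene is not in the promoter table, and its 5′ end was taken as the lower coordinate, as is known of the gene. Region 1 (chr8:64080440-64081827, hg19) spanned the start of the gene, with the summit 165 bases inside it, and was called in siMettl3 replicate 1 only (fold enrichment 5.4, score 87.27). YTHDF3-DT, a noncoding RNA gene, ends 111 bases before YTHDF3 in the RefSeq table of GRCh38.p14. Region 2 (chr8:64098558-64100501, hg19), at 40.8% of the window, held the highest score of the 9 genes, 1077.3 in siControl replicate 2. Its fold enrichment was 3.49 and 4.22 in siControl and 3.06 and 3.81 in siMettl3, which overlap (log2 difference −0.17 ± 0.19 SE, adjusted p = 0.794, limma; −0.01 without siMettl3 replicate 1).

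YTHDF3 region 3 (chr8:64122093-64122951, hg19), at 93.4% of the window, had the largest difference in enrichment among the 8 regions called in all 4 samples. Fold enrichment was 11.08 and 6.98 in siControl and 5.05 and 4.95 in siMettl3. Both siMettl3 samples were below both siControl samples, and their geometric mean was 0.569 times that of siControl (log2 difference −0.81 ± 0.24 SE). The unadjusted p was 0.0105 and the adjusted p 0.413 in limma, so the difference did not pass the test over 3875 regions, of which 23 had a lower value. Under a replicate block, the adjusted p in limma was 0.152. siControl replicate 1 set much of the size, and without it the log2 difference was −0.48 (unadjusted p = 0.0795 in limma). Scores were 327.49 and 223.14 in siControl and 104.75 and 81.03 in siMettl3. The tags per kb were nearly equal, with 143 and 153 in siControl and 149 and 133 in siMettl3. Each density is over the sample's own peak, which spanned 855 and 859 bases in siControl and 603 and 812 in siMettl3. The unscaled tags did not overlap, with 122 and 131 in siControl and 90 and 108 in siMettl3. Enrichment and score were thus lower in siMettl3 where the tag density overlapped, and the background that enters the enrichment is not in the lists.

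YTHDC1, the nuclear reader, had 10 peaks in 3 regions. Region 1 (chr4:69215091-69215944, hg19) lay at the 5′ end of this minus-strand gene, with the summits 191 to 244 bases inside it. Fold enrichment was 3.63 and 3.69 in siControl and 3.64 and 5.56 in siMettl3. Only siMettl3 replicate 2 was high, and the log2 difference of 0.30 ± 0.23 (SE, adjusted p = 0.677, limma) was −0.0079 without it. Region 2 (chr4:69202597-69203817, hg19), at 32.5% of the window, was steady in enrichment, at 6.19 and 6.40 in siControl and 5.54 and 6.19 in siMettl3 (log2 difference −0.10 ± 0.16 SE, adjusted p = 0.853, limma). Region 3 (chr4:69179195-69180240, hg19), at 90.4%, was called in 1 sample of each group, with a fold enrichment of 5.42 in siControl replicate 1 and 4.49 in siMettl3 replicate 2.

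**Figure D2:**
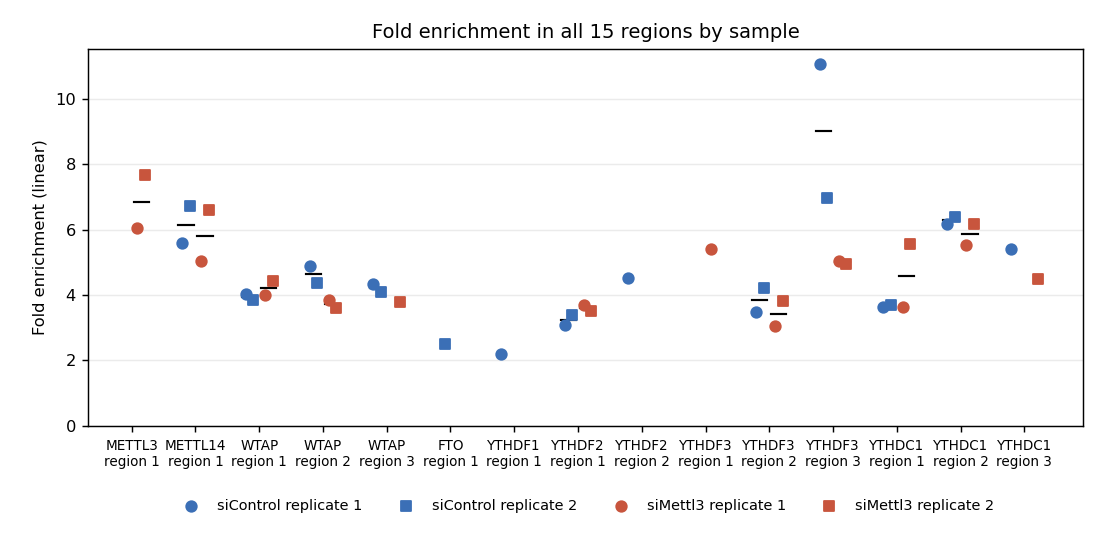
Linear fold enrichment (y axis) in the 15 regions (x axis), with 1 point for each sample that has a peak there and a black line at the mean of a group with 2 values. The siMettl3 points lie below the siControl points in WTAP region 2 and YTHDF3 region 3 and above them in YTHDF2 region 1.

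**Figure D3:**
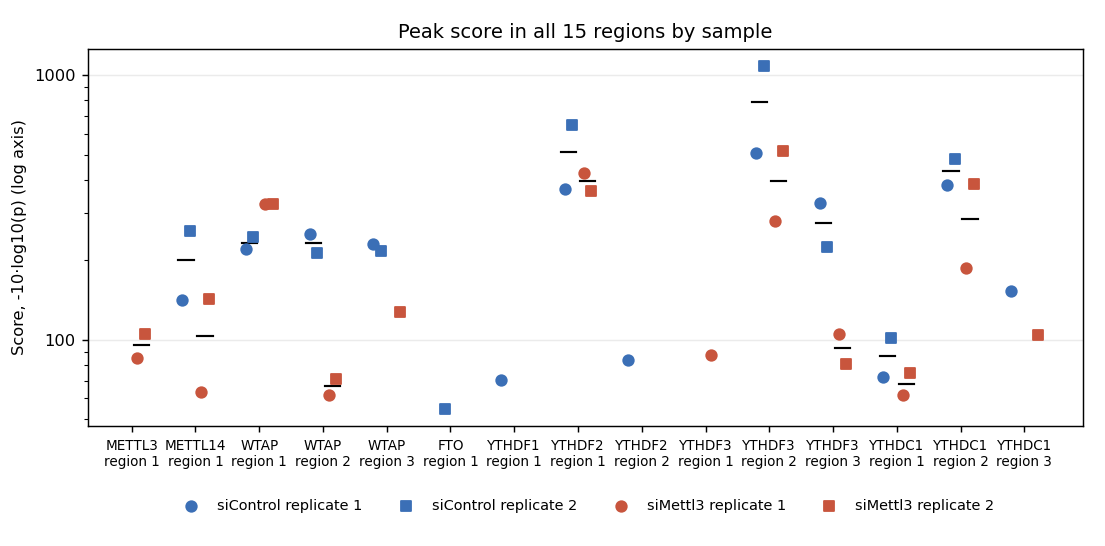
Peak score, a multiple of −log10 of the p-value, on a log axis (y axis) in the same 15 regions, with points and lines as for the enrichment. In WTAP region 2 the siMettl3 samples are at 61.91 and 71.11 and the siControl samples at 250.4 and 212.76, while in WTAP region 1 the siMettl3 samples are the higher ones.

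Over the 8 regions called in all 4 samples, 0 passed an adjusted p of 0.05 in limma, as did 0% of all 3875 regions called in all 4 samples. At an unadjusted p under 0.05 there was 1 region (YTHDF3 region 3), against 9.6% of all. Log2 enrichment was lower in siMettl3 in 5 regions and higher in 3, where it was lower in 1878 and higher in 1997 of all 3875 regions. The median difference was −0.10, against 0.01 over all regions. Leaving out 1 sample at a time moved the median of the 8 regions from −0.23 to 0.05, so its sign rests on single samples. The median over all regions moved from −0.05 to 0.06. Both siMettl3 samples were below both siControl samples in enrichment in 2 regions (21.1% of all regions) and above them in 1 (20.6%). For the score these numbers were 2 (25.3%) and 1 (17.9%). These counts are near those of all regions.

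**Figure D4:**
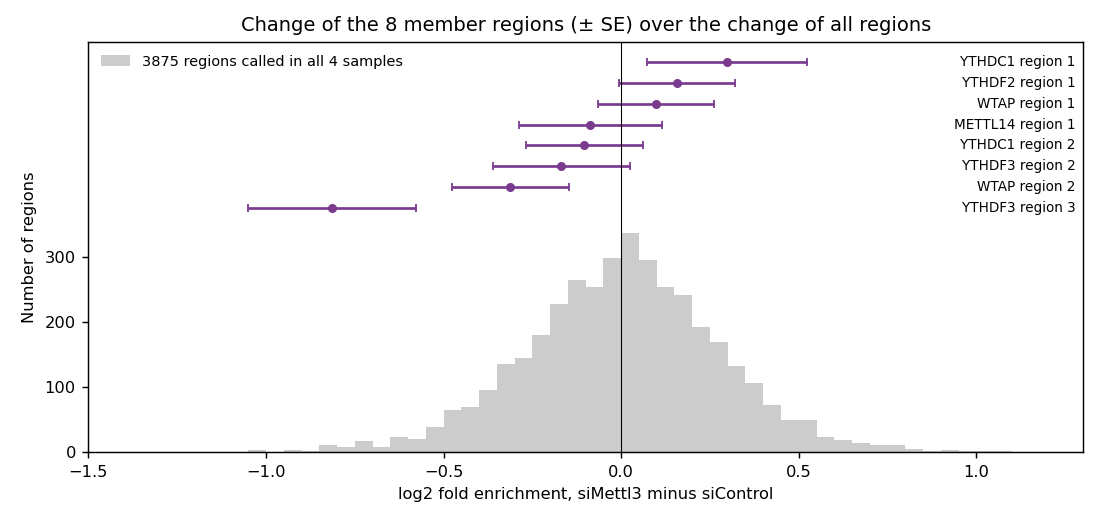
Log2 fold enrichment, siMettl3 minus siControl (x axis), as a grey histogram of the number of regions (y axis) over the 3875 regions called in all 4 samples, with the 8 regions of the 9 genes above it as points with their SE. YTHDF3 region 3, at −0.81, lies at the low end, and the other 7 regions lie between −0.31 and 0.30.

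The tag density gave a different picture from the enrichment. In the 8 shared regions together it was 350 and 368 tags per kb in siControl and 333 and 263 in siMettl3 (359 ± 12.6 and 298 ± 49.7, SD, n = 2 in each group; p = 0.333 in an exact permutation test, the smallest it can give). Divided by the density over all 3875 shared regions of the same sample, which was 236, 255, 253 and 206 tags per kb in the same order, it was 1.48 and 1.44 in siControl and 1.32 and 1.27 in siMettl3 (p = 0.333 in the same exact test). Both siMettl3 samples were below both siControl samples in 5 of the 8 regions (METTL14, WTAP region 2, YTHDF2 region 1 and YTHDC1 regions 1 and 2), against 33.1% of all regions, and above them in 0, against 11.0%. Over all peaks of the 9 windows the density was 395 and 373 in siControl and 301 and 262 in siMettl3. This difference of −102 was −98.1 with a score of at least 70 and −121 with the summit inside the window. With 1 sample left out it ran from −121 to −82.6. It shrank to −34.0 once peaks with an FDR above 50% were left out, and in the 8 shared regions it was −60.9. The windows hold partly different peaks in each sample, so their density depends also on which peaks were called. In immunoprecipitated RNA, the amount of a transcript and its methylation cannot be told apart from tags alone. Apart from the ratio to all shared regions, in which a common factor of depth cancels, tags were not scaled to the unknown depth.

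**Figure D5:**
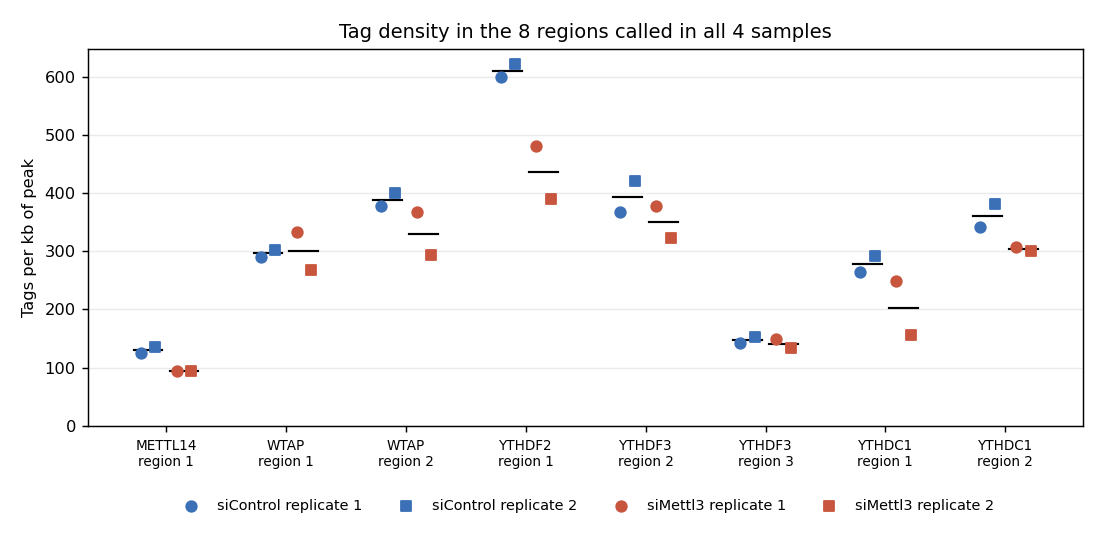
Tags per kb of peak (y axis, from 0) in the 8 regions called in all 4 samples (x axis), with 1 point for each sample and a black line at each group's mean. YTHDF2 region 1 is at 600 and 621 in siControl and at 481 and 390 in siMettl3, and in YTHDF3 region 3 the samples overlap.

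Along the genes, 4 of the 15 regions had their median summit in the first 10% of the window or before it, 5 in the last 10%, and 6 between. Those in the first 10% or before it were in METTL3, WTAP, YTHDF3 and YTHDC1. Only those of WTAP and YTHDC1 were called in all 4 samples, and the WTAP summits lay before the window. Those in the last 10% were in METTL14, WTAP, YTHDF2, YTHDF3 and YTHDC1. Only those of METTL14 and YTHDF3 were called in all 4 samples, and the METTL14 window is shorter than the gene in RefSeq. These positions were not compared with those in other genes. The edges of some peaks were the same in every sample. YTHDF3 region 3 began at base 64122093 in all 4 samples, and YTHDC1 region 2 ended at base 69203817 in all 4. WTAP region 2 and YTHDF2 region 1 began within 3 bases in the 4 samples. In all, 4 of the 8 shared regions had a start or an end that varied by at most 5 bases, against 10.1% of the 3875 regions. The strong regions of YTHDF2 and YTHDF3 inside the gene were also long, at 2099 and 1944 bases, against a median of 1386 bases for regions called in all 4 samples.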

How the data were processed

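The files were 4 lists of m6A peaks, 1 per immunoprecipitated HepG2 sample. The authors sequenced the RNA on an Illumina HiSeq2500, and the submitters' processing notes name CASAVA 1.8.2, MACS 1.4.2 and hg19. The aligner is not given in the sources used here. The tags of a peak were deposited by the authors as whole-number counts, unscaled. The fold enrichment (a linear ratio over background within the sample), the score (a multiple of −log10 of the p-value) and the FDR in percent were deposited as the peak caller wrote them. MACS was written for DNA and takes no account of splicing.

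Positions were read as 1-based. The gene windows, the 9 genes and the lists were chosen with earlier results of these data known. Regions were joined by an overlap of at least 1 base, and a sample's enrichment and score in a region were its highest. log2 fold enrichment, from the ratio deposited by the authors and with no pseudocount, was compared with limma 3.58.1 (R 4.3.3, lmFit and eBayes, no replicate block). The comparison covered the 3875 regions called in all 4 samples, with Benjamini-Hochberg adjustment over all of them at 0.05. This step was tested on simulated data, whose changes were larger and whose spread was smaller than those seen here. The simulation therefore does not show whether changes of the size seen here would be found. No count model was fitted, since tags cover different intervals in different samples, and for the same reason no counting interval is given. Sums over the windows were tested by exact permutation of the sample labels, two-sided (scipy 1.17.1). All 9 genes were named whatever their values. Python 3.11.15, pandas 2.3.3 and matplotlib 3.10.9 were used. Gene names, neighbours and promoter sequences come from RefSeq (GRCh38.p14), and 8 of the 9 genes have a promoter entry. Other genes of the pathway and liver marker genes were not analysed here, because no annotation of hg19 was used.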

Additional observations from a re-analysis of the deposited data

How the results depend on the processing

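The alternatives, each run for the results it bears on, were a score of at least 70, an FDR of at most 50%, the peak summit inside the window, a replicate block and each sample left out. The others were equal numbers of peaks in every sample, peaks that cover at least 50% of a region, length-weighted, median-centred or quantile-normalized enrichment, trend and robust settings, and regions joined by summits within 500 bases. With all 4 samples kept, limma called 0 of the regions of these genes and 0 of all regions under each alternative run with it. All regions at an unadjusted p under 0.05 in limma then numbered 146 to 497. Counting also the fits with 1 sample left out, there were 12 such alternatives. They tested 5 of the regions of these genes with the stricter score, 4 with the FDR limit and 8 otherwise. METTL14, WTAP region 2 and YTHDC1 region 1 could be tested in 10 of the 12 and YTHDF3 region 3 in 11. The difference in the number of peaks was 0 with equal numbers of peaks and ran from −1.5 to 0.5 with 1 sample left out. It was −1.5 with a score of at least 70 and −3.5 with an FDR of at most 50% (p = 0.667 and 0.333, exact permutation test). The difference in covered length, −1267.5 bases, ran from −2666.5 to 131.5 with 1 sample left out. It was −2305 with the stricter score and −3863.5 with the FDR limit. Regions present in all 4 samples were 5 with the stricter score. With an FDR of at most 50% there were 9 regions, 4 of them in all 4 samples (25.5% of all such regions). Of the 9, 2 were only in both siControl samples (6.09%), namely WTAP region 2 and YTHDF3 region 3, and 0 only in both siMettl3 samples (4.49%). With 1 sample left out, METTL14 ran from −0.28 to 0.11 in log2 difference and YTHDC1 region 1 from −0.0079 to 0.60. WTAP region 1 ran from 0.02 to 0.17, YTHDF3 region 2 from −0.33 to −0.01 and YTHDC1 region 2 from −0.18 to −0.02, in each case with siMettl3 replicate 1 or 2 left out at the extremes. YTHDF2 region 1 was lowest, at 0.09, without siControl replicate 1. The causes were not tested. Fits with 1 sample in a group assume that it varies like the other group.

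The replicate block left the difference in peaks at −0.5 and in tags per kb at −102 (SD of the paired differences 11.9). It changed no call of limma among the 8 regions or among all regions (all regions at an unadjusted p under 0.05: 497, against 372 without it). The replicates share only a number, and deviations of same-numbered samples correlated with r = 0.011 over the 3875 regions. The unknown depth limits the comparisons of scores and of tags, except for the ratio to all shared regions of the same sample. The 2 samples per group limit every test.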
